A study of Mus musculus with 11 samples.

Results

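The 10 genes described here encode proteins that neutrophils store in their granules or hold in their cytosol. S100a8, S100a9, Lcn2, Retnlg and G0s2 were grouped here as genes that mature neutrophils express. Ltf, Ngp, Camp, Mpo and Elane were grouped as genes transcribed while granules form in the bone marrow. The division concerns expression and not where the protein is stored, so the first group can hold genes of granule proteins, Lcn2 included. All 10 were chosen by symbol from the 55513 genes of the count table, and each symbol matched 1 gene. Hearts came from 11 mice of the strain C57BL/6J, all female and 8 weeks of age, and were taken 3 days after the operation for RNA sequencing. In 8 of them a permanent ligature on the left coronary artery's anterior descending branch caused a myocardial infarction (MI), and the infarct was taken with its border zone. Of these, 4 mice received A10i (GI254023X, 100 mg/kg), an inhibitor of the metalloprotease ADAM10, dissolved in DMSO and given by osmotic minipump, and 4 received DMSO without inhibitor. The other 3 mice had a sham operation, received DMSO and gave healthy heart tissue. All groups thus received DMSO, and MI and sham hearts differed in the region sampled as well as in the ligation. In bulk tissue, fewer neutrophils and less RNA per neutrophil cannot be told apart.

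Neutrophils are the first leukocytes to enter an infarct in large numbers. They are made in the bone marrow, where the primary granules with myeloperoxidase (Mpo) and neutrophil elastase (Elane) form first, followed by the specific granules with lactoferrin (Ltf), neutrophilic granule protein (Ngp) and cathelicidin (Camp). Transcription of these granule genes ceases before the cells enter the blood, so that a circulating neutrophil carries the proteins but little of the mRNA. S100A8 and S100A9, in contrast, pair to form calprotectin, the most abundant cytosolic protein of mature neutrophils and a ligand of Toll-like receptor 4, and their mRNA persists. Lcn2 encodes lipocalin-2, which binds bacterial siderophores and is also made by other cells during inflammation. Retnlg encodes a resistin-like protein of myeloid cells. G0s2 encodes an inhibitor of adipose triglyceride lipase and is expressed in neutrophils, fat and heart muscle.

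On mm10, S100a8 (chr3:90668978-90670035, + strand) and S100a9 (chr3:90692632-90695721, − strand) are neighbours in the S100 gene cluster, separated by 22596 bases. Camp, Ngp and Ltf lie within 1.2 Mb of each other on chromosome 9, whereas Lcn2, Mpo, Elane, Retnlg and G0s2 are on chromosomes 2, 11, 10, 16 and 1. Upstream sequences are shown for S100a8 and S100a9, whose levels moved together, for Lcn2, whose levels took another order among the mice, for Ngp, the granule gene with the most counts, and for G0s2, which did not rise after MI. Each is the 250 bases before the RefSeq transcription start on GRCm38.p6, the same assembly as mm10, written 5′ to 3′ on the gene's strand. Capitals mark matches on either strand to TTGCNNAA, the core of C/EBP sites, or to GAGGAAGT, a PU.1 site. C/EBP proteins and PU.1 are transcription factors of the myeloid lineage. The positions are chr3:90668821-90669070 (+) for S100a8, chr3:90695722-90695971 (−) for S100a9, chr2:32387740-32387989 (−) for Lcn2, chr9:110419558-110419807 (+) for Ngp and chr1:193273189-193273438 (−) for G0s2.
S100a8: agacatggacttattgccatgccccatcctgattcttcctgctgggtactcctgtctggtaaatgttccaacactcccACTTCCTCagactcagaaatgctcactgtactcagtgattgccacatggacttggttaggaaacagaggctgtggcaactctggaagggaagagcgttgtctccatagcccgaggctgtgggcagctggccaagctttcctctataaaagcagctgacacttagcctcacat
S100a9: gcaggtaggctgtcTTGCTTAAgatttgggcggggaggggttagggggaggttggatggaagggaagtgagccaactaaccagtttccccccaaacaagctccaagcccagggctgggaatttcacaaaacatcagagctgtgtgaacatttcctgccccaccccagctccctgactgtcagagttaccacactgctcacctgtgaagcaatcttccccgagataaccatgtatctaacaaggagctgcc
Lcn2: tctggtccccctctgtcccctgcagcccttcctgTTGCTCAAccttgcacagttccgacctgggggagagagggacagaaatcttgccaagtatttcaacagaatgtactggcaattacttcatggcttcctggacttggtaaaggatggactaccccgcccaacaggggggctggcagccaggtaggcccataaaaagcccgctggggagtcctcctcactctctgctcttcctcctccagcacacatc
Ngp: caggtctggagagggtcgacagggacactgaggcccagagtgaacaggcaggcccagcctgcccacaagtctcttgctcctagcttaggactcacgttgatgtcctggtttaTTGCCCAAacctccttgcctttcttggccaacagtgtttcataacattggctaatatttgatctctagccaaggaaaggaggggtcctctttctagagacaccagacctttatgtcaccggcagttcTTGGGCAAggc
G0s2: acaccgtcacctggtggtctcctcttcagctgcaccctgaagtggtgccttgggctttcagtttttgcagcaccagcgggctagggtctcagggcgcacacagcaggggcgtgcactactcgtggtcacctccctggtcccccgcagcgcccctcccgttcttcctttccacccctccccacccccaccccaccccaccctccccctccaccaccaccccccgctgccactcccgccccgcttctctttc

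All 10 genes had a RefSeq window of 250 bases before to 50 after the start, and both strands were searched. TTGCNNAA was present in 5 windows, those of S100a9, Lcn2, Ltf, Ngp and Retnlg, and in 10.8% of all 32851 windows of this length. In S100a9 the match began 236 bases before the start, in Lcn2 216 bases before it. Ngp held 2 matches, 138 and 11 bases before the start, the latter on the opposite strand. GAGGAAGT was present in 3 windows, those of S100a8, Mpo and Elane, and in 3.2% of all windows. In S100a8 the match lay on the opposite strand, 172 bases before the start. No window held both motifs, and those of Camp and G0s2 held neither. These matches describe the letters only.

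Total counts per mouse lay between 21702659 and 29511782. All 15 pairs of replicates differed beyond counting error (chi-square divided by its degrees of freedom, 4.04 to 60.8). Of the 10 genes, 5 passed the filter on low counts in every comparison (S100a8, S100a9, Lcn2, Retnlg and G0s2), and they were tested with edgeR's quasi-likelihood test among all genes, at an adjusted p (Benjamini-Hochberg) under 0.01. The 5 granule genes did not pass it and were compared by an exact permutation test for each gene. Levels are normalized counts, that is, counts scaled to a common library size, unless counts or another scale are named.

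Calprotectin transcripts were nearly absent from sham hearts, abundant in infarcted hearts, and at about 4-fold lower levels with A10i than with DMSO, a difference that DESeq2 called and edgeR did not. S100a8 had 3, 2 and 1 counts in the 3 sham mice (2.09 ± 1.17 normalized counts, mean ± SD, n = 3). In the DMSO mice its normalized count was 665.7 in mouse A105, 480.4 in A127, 840.9 in A128 and 797.8 in A129 (696.2 ± 162, n = 4). In the A10i mice it was 275.9 in A116, 138.3 in A117, 81.5 in A119 and 195.8 in A120 (172.8 ± 83.1, n = 4). The 3 groups did not overlap, and the highest A10i mouse remained below the lowest DMSO mouse. S100a9 followed the same order of groups, with 2 to 7 counts in sham mice. It reached 841.0, 528.5, 909.5 and 873.7 normalized counts in the DMSO mice A105, A127, A128 and A129. It reached 311.3, 201.5, 89.9 and 204.9 in the A10i mice A116, A117, A119 and A120. A127 was the lowest DMSO mouse and A119 the lowest A10i mouse for both genes.

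**Figure D1:**
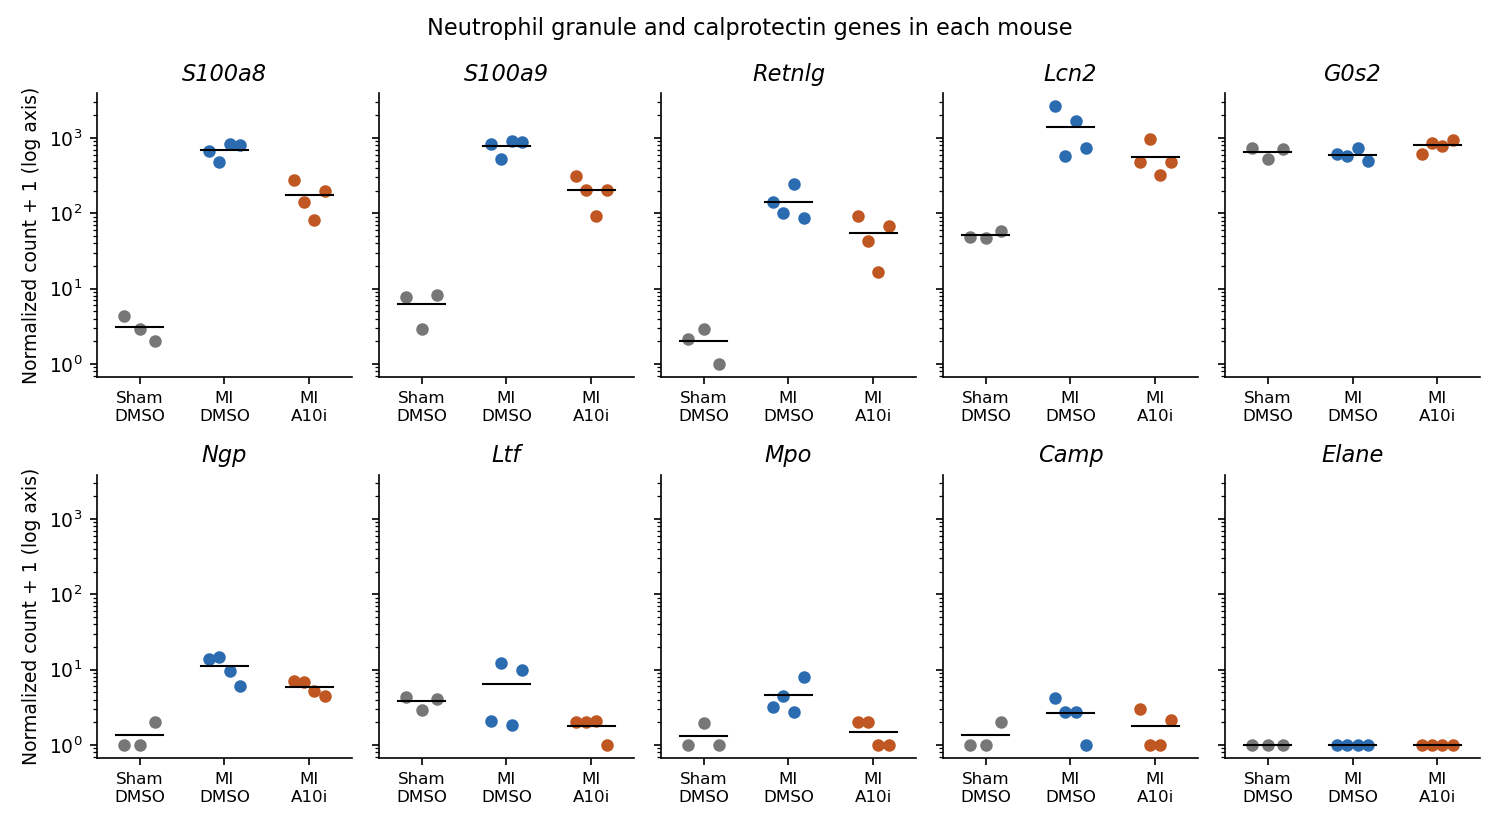
Normalized count plus 1 of each gene (log axis) in every mouse by group, with a black line at the group mean. S100a8 and S100a9 separate all 3 groups, G0s2 is high in all of them, and the granule genes in the lower row stay near the bottom of the axis, with Elane at 0 counts throughout.

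Against sham, 4 of the 5 tested genes rose in DMSO mice, among 17119 genes tested of which 12.9% rose and 9.6% fell. Of these 4, S100a8, S100a9 and Retnlg had 1 to 3, 2 to 7 and 0 to 2 counts in the sham mice. They passed the filter through the infarcted mice, so 4 of 5 cannot be weighed against the share of all genes. With at least 10 counts required in every library, Lcn2 alone was called higher than sham in either infarcted group. S100a8 rose by 8.31 on the log2 scale (SE 0.366, adjusted p = 1.07e-05 by edgeR) and S100a9 by 7.22 (SE 0.351, adjusted p = 1.14e-05). The same 4 genes rose in A10i mice, where 13.8% of 17004 genes rose and 9.09% fell. There S100a8 rose by 6.31 (SE 0.642, adjusted p = 0.000306 by edgeR) and S100a9 by 5.26 (SE 0.570, adjusted p = 0.000373). The size of these changes is limited by the sham counts, which came to 6 for S100a8 and 15 for S100a9 in all. The ratio of summed S100a8 counts between DMSO and sham, scaled for library size, was 338, with a 95% interval of 155 to 923 from counting error alone. Both comparisons used the same 3 sham mice.

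Between A10i and DMSO, S100a8 was lower by a log2 fold change of -2.00 (SE 0.325, 95% confidence interval -2.73 to -1.27, unadjusted p = 0.000131, adjusted p = 0.0707 by edgeR). S100a9 was lower by -1.95 (SE 0.317, 95% confidence interval -2.67 to -1.24, adjusted p = 0.0707 by edgeR). Neither passed the threshold of 0.01. By edgeR, 0 of the 5 tested genes and 0% of 16793 genes were lower at 0.01. At an adjusted p under 0.05 again 0 of the 5 were lower, and 0.0536% of all genes. At an unadjusted p under 0.05, 4 of the 5 were lower (S100a8, S100a9, Lcn2 and Retnlg), against 6.73% of all genes tested. DESeq2 called S100a8 and S100a9 lower with an adjusted p of 6.29e-07 each, 2 of the 6 it tested, Ngp being the sixth, against 0.712% of the 17549 genes it tested. Of the 5 genes tested by edgeR, the same 2 were those whose A10i and DMSO mice did not overlap, against 4.4% of genes not overlapping in this direction. Mpo, which was too low for edgeR's test, did not overlap either. The call for calprotectin therefore depended on the tool, while the fold change did not. Leaving out each mouse in turn moved the edgeR fold change of S100a8 between -2.32 and -1.77 and that of S100a9 between -2.24 and -1.71.

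**Figure D2:**
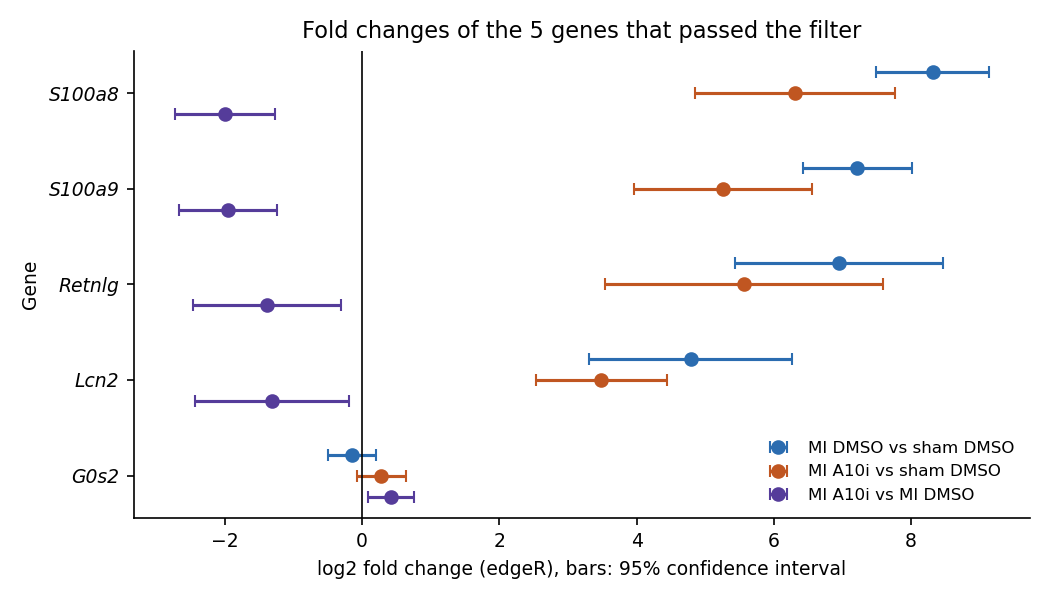
Log2 fold change with its 95% confidence interval (edgeR) for the 5 genes that passed the filter, in the 3 comparisons. S100a8, S100a9, Retnlg and Lcn2 lie far to the right of 0 against sham and to the left of it when A10i is set against DMSO. G0s2 lies closer to 0, with an interval that includes 0 against sham and lies above it (0.08 to 0.76) for A10i against DMSO.

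The ratio of the 2 calprotectin transcripts hardly varied. Per kilobase of exon, S100a9 was 1.51 ± 0.114 times S100a8 in DMSO mice (n = 4, range 1.44 to 1.68) and 1.57 ± 0.246 times in A10i mice (n = 4, range 1.39 to 1.94). The ranges overlapped, and the fold changes of both genes differed by less than their standard errors. In sham mice the counts were too low for a ratio.

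Retnlg had the same order of group means, with more overlap between the infarcted groups. It had 1, 2 and 0 counts in the sham mice. Its normalized count was 140.7, 99.7, 242.8 and 85.9 in the DMSO mice A105, A127, A128 and A129, and 92.0, 42.5, 15.9 and 66.4 in the A10i mice A116, A117, A119 and A120. A single A10i mouse, A116, lay above the lowest DMSO mouse, A129. Retnlg rose by 6.95 on the log2 scale in DMSO mice (SE 0.673, adjusted p = 0.000186) and by 5.56 in A10i mice (SE 0.895, adjusted p = 0.00174 by edgeR) against sham. The call in A10i mice was lost without sham mouse S1 (adjusted p = 0.0108, log2 fold change 5.61). With A10i the level was lower than with DMSO by a log2 fold change of -1.38 (SE 0.480, adjusted p = 0.247 by edgeR, 0.068 by DESeq2), and -0.99 without A128.

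Lcn2 differed from calprotectin in being detected in sham hearts and in the wide spread among infarcted hearts. Its normalized counts were 47.9, 45.6 and 57.6 in the sham mice. The DMSO mice had 2632 (A105), 568 (A127), 1701 (A128) and 726.9 (A129), and the A10i mice had 478 (A116), 973.7 (A117), 321.6 (A119) and 475.1 (A120). All infarcted mice lay above all sham mice, whereas the A10i mouse A117 lay above 2 of the 4 DMSO mice. Lcn2 rose by 4.79 on the log2 scale in DMSO mice (SE 0.643, adjusted p = 0.00102) and by 3.48 in A10i mice (SE 0.417, adjusted p = 0.000662 by edgeR). Without a filter on low counts the call in DMSO mice was lost (adjusted p = 0.0109, log2 fold change 4.79). The log2 fold change of A10i against DMSO was -1.31 (SE 0.499, 95% confidence interval -2.43 to -0.19, adjusted p = 0.287 by edgeR, 0.289 by DESeq2). It was -0.82 without A105.

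Within the infarcted groups the order of the mice for Lcn2 was not that for S100a8. A105 had the highest Lcn2 but only the third S100a8 level of the DMSO mice, and A117 had the highest Lcn2 but the third S100a8 level of the A10i mice. Lrg1, an acute-phase glycoprotein gene, followed the order of Lcn2 in the leading mice. The 3 infarcted mice with the most Lcn2, A105, A128 and A117, also had the most Lrg1, with 3626, 2425 and 2002 normalized counts. The other 5 infarcted mice had between 1055 and 1401, and the sham mice between 900.2 and 1115. This resemblance was singled out after the values were seen. Haemoglobin transcripts were also highest in A105 and A117, with 34420 and 46060 normalized counts of Hbb-bs, but lowest in A128, with 2387. Their part in the Lcn2 levels was not tested.

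**Figure D3:**
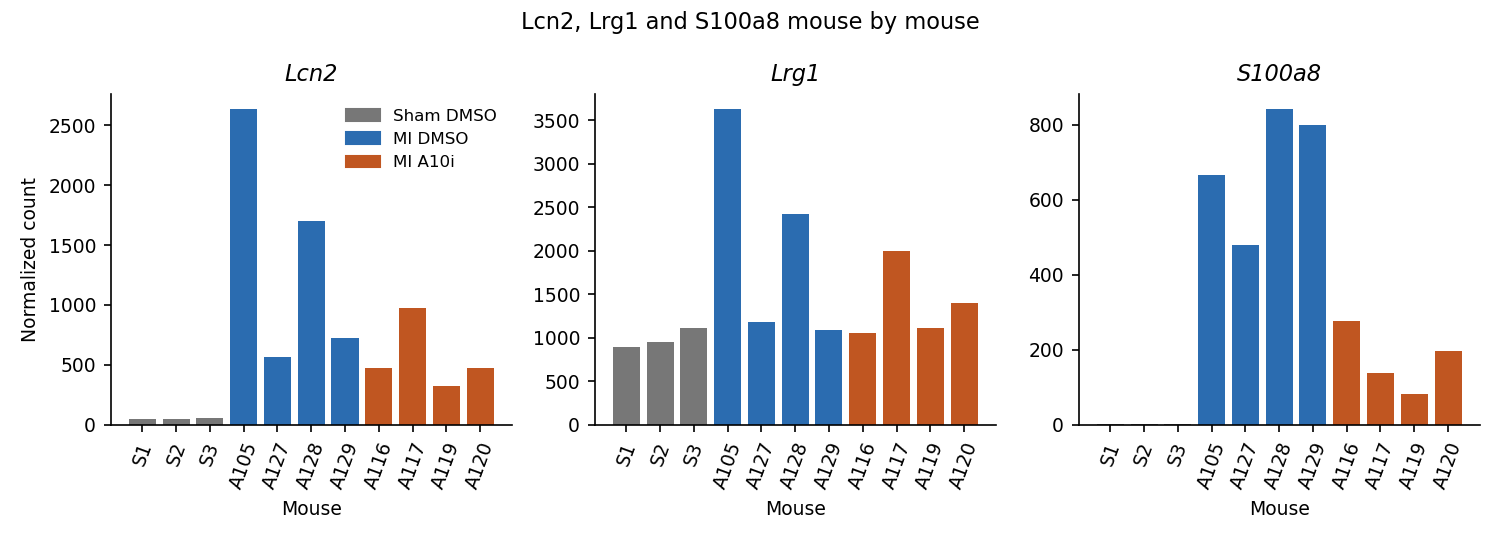
Normalized counts of Lcn2, Lrg1 and S100a8 in each of the 11 mice, coloured by group. A105, A128 and A117 stand above the other infarcted mice for both Lcn2 and Lrg1, whereas for S100a8 every DMSO mouse stands above every A10i mouse.

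The granule genes gave few or no reads in any heart. Elane had 0 counts in all 11 mice, which at these depths allows up to 3 counts per library. Ngp, the most frequent, had 0, 0 and 1 counts in sham mice, 12, 16, 10 and 5 in the DMSO mice A105, A127, A128 and A129, and 6, 6, 4 and 3 in the A10i mice A116, A117, A119 and A120. All infarcted mice exceeded all sham mice. Mpo had 0, 1 and 0 counts in the sham group, 2, 4, 2 and 7 in the DMSO group and 1, 1, 0 and 0 in the A10i group. The DMSO mice lay above both other groups, by as little as 1 count. Ltf had 3, 2 and 3 counts in sham, 1, 13, 1 and 9 in DMSO, and 1, 1, 1 and 0 in A10i mice. The higher Ltf mean of the DMSO group thus came from A127 and A129. Camp had between 0 and 3 counts in every mouse, with 1 count in all sham mice together, 7 in DMSO and 3 in A10i.

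The exact permutation test on log2 CPM, two-sided, could not go below 0.0571 with 4 against 3 mice or below 0.0286 with 4 against 4. Against sham, Ngp and Mpo reached that limit in DMSO mice, with differences of 2.32 and 1.20 (exact p = 0.0571 each). Camp (exact p = 0.229) and Ltf (exact p = 0.629) did not. In A10i mice Ngp again reached it, with a difference of 1.57, and Ltf reached it in the opposite direction, with -0.80 (exact p = 0.0571 each). The difference between the infarcted groups, A10i minus DMSO, was -1.10 for Mpo (exact p = 0.0286), -0.75 for Ngp (0.0857), -1.13 for Ltf (0.2) and -0.38 for Camp (0.4). The Mpo difference rests on 2 counts against 15, a ratio of 0.148 with an interval of 0.0165 to 0.638 from counting error alone. For Ngp the ratio was 0.492 (19 against 43 counts, interval 0.271 to 0.863). By DESeq2, which did not remove Ngp, Ngp rose by 4.77 in DMSO mice against sham (adjusted p = 0.00252), and edgeR without a filter gave 4.45 (adjusted p = 0.000375). With any 1 sham mouse left out, edgeR's filter kept Ngp and its adjusted p was 0.0123 to 0.0191, above the threshold of 0.01. In A10i mice against sham the DESeq2 value was 3.74 (adjusted p = 0.0329), also above it, and between A10i and DMSO -1.02 (adjusted p = 0.452). The Mpo, Ltf and Camp counts are at the limit of what this depth can show.

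Granule transcripts made up a small share beside calprotectin transcripts in every infarcted heart, with or without A10i. Summed over the group, the 5 granule genes had 11 (sham), 89 (DMSO) and 27 (A10i) counts, and S100a8 with S100a9 had 21, 6280 and 1437. The granule share of both sums was 1.4% in DMSO (95% Clopper-Pearson interval 1.12 to 1.72) and 1.84% in A10i mice (1.22 to 2.67), and these intervals, which cover counting error only, overlapped. Single DMSO mice ranged from 0.73% (A128) to 2.89% (A127) and single A10i mice from 1.13% (A120) to 2.99% (A119). In sham mice the share was 34.4% (18.6 to 53.2), from 11 and 21 counts.

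**Figure D4:**
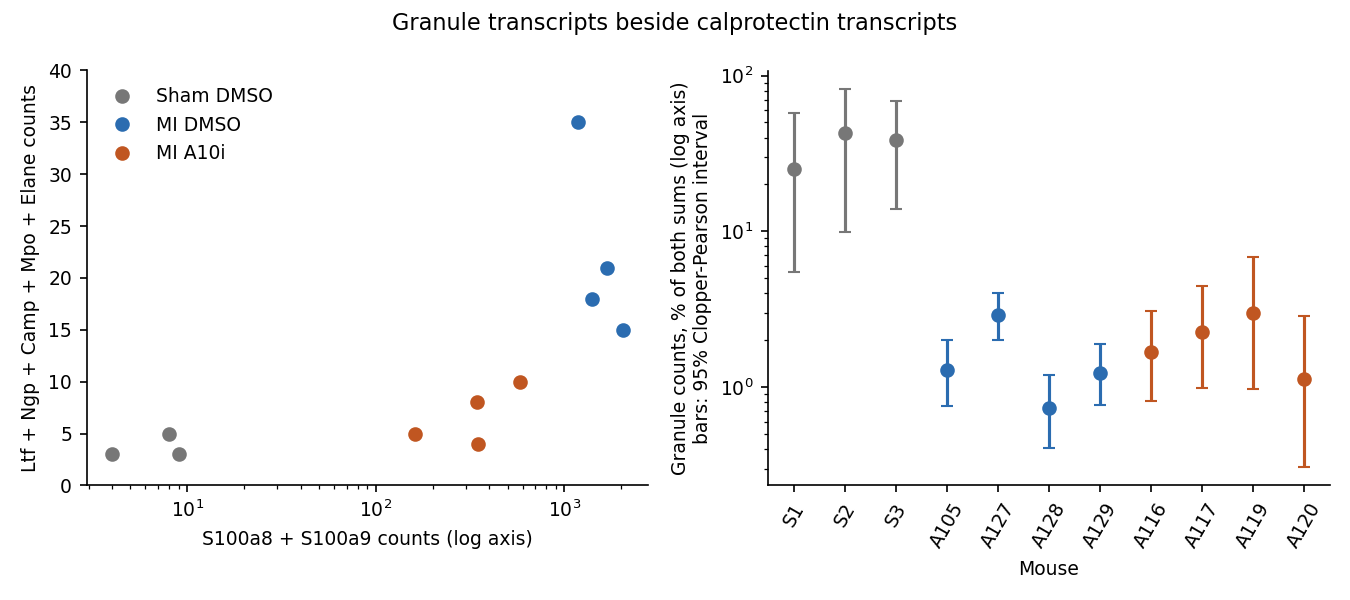
Left, summed counts of the 5 granule genes against summed S100a8 and S100a9 counts (log axis), 1 point a mouse. Right, granule counts as a percent of both sums (log axis) with 95% Clopper-Pearson intervals, where DMSO mice lie between 0.73 and 2.89% and A10i mice between 1.13 and 2.99%.

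The contrast between both sets was also expressed as the mean log2 CPM of the 5 granule genes minus that of the 5 genes of mature neutrophils. The sham mice had -2.90 ± 0.248 (n = 3), the DMSO mice -6.84 ± 0.710 (n = 4) and the A10i mice -6.23 ± 0.467 (n = 4). Infarcted mice lay between -7.61 and -5.55, all below the sham mice, and the ranges of the infarcted groups overlapped. Most of the shift against sham came from the genes of mature neutrophils, whose mean went from -0.41 in sham to 4.42 (DMSO) and 3.14 (A10i). The granule mean was -3.31, -2.42 and -3.09, close to the -3.68 that a count of 0 gives on this scale, so the score has little room to fall on its granule side. The difference depended on the genes taken as mature and on the prior count. With S100a8 and S100a9 alone, DMSO minus sham went from -3.93 to -6.24 and A10i minus DMSO from 0.61 to 1.40. With a prior count of 0.5 in place of 2 the latter was 0.19. No p-value was computed for the score.

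G0s2 stood apart from the other 4 tested genes. It was expressed at 743.3, 519.2 and 716.7 normalized counts in the sham mice, without an infarct. The DMSO mice A105, A127, A128 and A129 had 606.1, 568, 739.6 and 489.3, and the A10i mice A116, A117, A119 and A120 had 620.5, 871, 777.7 and 927.4. The 3 groups overlapped. G0s2 was the only one of the 5 tested genes that did not pass the threshold against sham (DMSO, log2 fold change -0.14, SE 0.157, adjusted p = 0.493; A10i, 0.28, SE 0.159, adjusted p = 0.192, edgeR). Scaled by library size alone, the DMSO value turned to 0.06, where the median of all genes was shifted by 0.21. Compared with DMSO it was higher with A10i by 0.42 (SE 0.151, 95% confidence interval 0.08 to 0.76, unadjusted p = 0.0191, adjusted p = 0.259 by edgeR, 0.199 by DESeq2), the direction opposite to the other 4. Adipocyte markers were examined beside it. Normalized counts of 6 adipocyte markers summed to 45.6 to 182 (sham), 63.5 to 189.4 (DMSO) and 179.9 to 654.8 (A10i), so that the groups overlapped. The 4 markers that passed the filter had positive log2 fold changes between A10i and DMSO, 2 of them at an unadjusted p under 0.05 (7.1% of all genes were higher at that level), 0 passed 0.01 by edgeR, and DESeq2 called 1, Cfd. Adipoq (6 to 22 counts in DMSO and 14 to 98 in A10i mice) and Cidec (5 to 43 and 25 to 149) passed the filter through the A10i mice. The counts of higher markers therefore cannot be weighed against the share of all genes. Cfd had 39.5 to 91.9 normalized counts in DMSO and 113.2 to 289.4 in A10i mice. Without A117, the mouse with the most Cfd, the G0s2 fold change was 0.38. The part of fat tissue in the G0s2 level was not tested.

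Per kilobase of exon, the order of the mean levels changed with infarction. In sham hearts G0s2 led with 757 ± 141 normalized counts per kilobase, followed by Lcn2 with 19.2 ± 2.44 and S100a9 with 10.1 ± 5.60. In DMSO mice S100a9 led with 1510 ± 336, followed by S100a8 with 1003 ± 234, G0s2 with 689.7 ± 120, Lcn2 with 536 ± 365 and Retnlg with 239.9 ± 120. In A10i mice G0s2 led again with 918 ± 154, before S100a9 with 387 ± 173, S100a8 with 249 ± 120, Lcn2 with 214 ± 108 and Retnlg with 91.4 ± 54.9. Among these genes, neighbours that differed by less than the larger of their SDs were S100a9 and S100a8, and S100a8 and Lcn2, in A10i mice, and G0s2 and Lcn2, and Lcn2 and Retnlg, in DMSO mice. Ngp was sixth in both infarcted groups, with 8.25 ± 3.34 and 4.02 ± 1.06, and Camp, Ltf, Mpo and Elane followed in that order.

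Other transcripts of mature neutrophils pointed the same way as calprotectin. Of a list of 20 such genes, 17 of the 19 tested rose in DMSO mice against sham (12.9% of all genes rose). In A10i mice 12 of the 17 tested rose (13.8% of all genes). Several had almost no sham counts, such as Trem1 (0 in every sham mouse), Il1r2 (0 to 2) and Cxcr2 (1 to 2). Such genes passed the filter through the infarcted mice, so these counts cannot be weighed against the shares of all genes. In A10i mice all 18 genes tested against DMSO had lower values, 16 at an unadjusted p under 0.05 (6.73% of all genes). By edgeR 0 passed an adjusted p under 0.01, while DESeq2 called 9, against 0.712% of all the genes it tested. Some, such as Acod1 (46 to 81 counts in DMSO and 4 to 18 in A10i mice) and Fpr1 (52 to 97 and 3 to 40), passed edgeR's filter through the DMSO mice. The counts of lower genes therefore cannot be weighed against the shares of all genes. The median log2 fold change of the 18 was -1.52 (range -2.68 to -0.22), and that of all genes 0.003. The 4 with the highest levels were Ccrl2, a chemokine-binding receptor (-0.65, SE 0.143, adjusted p = 0.105), Mxd1, a MAX-binding repressor (-0.22, SE 0.132, adjusted p = 0.510), Csf3r, the receptor of G-CSF (-1.52, SE 0.368, adjusted p = 0.132) and Clec4d, a C-type lectin receptor (-0.68, SE 0.379, adjusted p = 0.471, edgeR). DESeq2 called Ccrl2 lower with A10i than with DMSO (adjusted p = 0.00546) and higher in DMSO mice than in sham (0.00764), where edgeR did not (0.0168). Mxd1 passed the threshold in no comparison with either tool. Unlike calprotectin, both were well detected in sham hearts, with means of 389.9 normalized counts for Ccrl2 (342 in A10i mice) and 255.4 for Mxd1. Which cells gave these levels was not tested. Csf3r had 343.7 to 803.8 normalized counts in DMSO mice and 102.6 to 304.2 in A10i mice.

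Genes of the specific and gelatinase granules, which form after the primary granules, were divided. Of 16 such genes beside the members, 13 of 14 tested rose in DMSO mice (12.9% of all genes) and 10 of 13 in A10i mice (13.8%) against sham. Some, such as Mmp8 (0 to 3 counts in sham mice) and Chil3 (0 to 1), passed the filter through the infarcted mice. The counts of risen genes therefore cannot be weighed against these shares. With A10i, 10 of 14 had lower and 4 higher values than with DMSO, and 6 were lower at an unadjusted p under 0.05 (6.73% of all genes). By edgeR 0 passed an adjusted p under 0.01, and 2 did by DESeq2 (0.712% of all genes it tested were lower). Here Wfdc21 (32 to 46 counts in DMSO and 5 to 14 in A10i mice) and Cd177 (30 to 73 and 8 to 21) passed edgeR's filter through the DMSO mice. The counts of lower genes therefore cannot be weighed against the shares of all genes either. The median of the list was -0.67 (range -2.03 to 0.48). The 4 with the highest levels are shared with macrophages. Lysozyme (Lyz2, 0.36, SE 0.290), annexin A1 (Anxa1, 0.30, SE 0.236) and the oxidase subunit Cybb (0.33, SE 0.232) had higher values with A10i, and Adam8, a metalloprotease, had a lower one (-0.48, SE 0.434), with adjusted p-values of 0.579 to 0.676 (edgeR). Chosen after the values were seen, Chil3 had 560.3 to 2501 normalized counts in DMSO and 109 to 499.2 in A10i mice.

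Of 6 further genes listed with the primary granules, 1 passed the filter against sham. This was Serpinb1a, whose product inhibits neutrophil elastase but is cytosolic and not itself a granule protein. Serpinb1a rose by 3.38 in DMSO mice (SE 0.291, from 78.1 to 815.1 normalized counts) and by 3.16 in A10i mice. A10i and DMSO mice differed by -0.22 (SE 0.275, adjusted p = 0.769 by edgeR). Prtn3, which encodes proteinase 3, passed the filter in that comparison alone, with means of 15.1 in DMSO and 16.2 in A10i mice (adjusted p = 0.951 by edgeR). Its sham mean was 1.66, all infarcted mice lay above all sham mice, and DESeq2 called it higher in DMSO (adjusted p = 0.00431) and A10i mice (adjusted p = 0.00184). Prss57 had means of 7.92 and 3.30 and Ctsg, cathepsin G, of 0.464 and 0.572, and neither was tested. For the whole list, 0 genes were past an unadjusted p of 0.05 or called by DESeq2 in this comparison.

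A list of 9 genes held transcription factors of granulocyte development and also Per3, a circadian clock gene with a mean of 1903 normalized counts in sham hearts. Cebpe, which drives specific granule genes, and Gfi1 did not pass the filter. Of the 7 tested, 5 rose and 1, Per3, fell in DMSO mice, where 12.9% of all genes rose and 9.6% fell. In A10i mice 4 rose and 1 fell, where 13.8% of all genes rose and 9.09% fell. Between A10i and DMSO, Cebpb was lower by -0.50 (SE 0.095, adjusted p = 0.0803 by edgeR, 0.000631 by DESeq2) and Cebpd by -0.42 (SE 0.125, adjusted p = 0.187 by edgeR). Both are C/EBP proteins of acute inflammation and are made in many cell types. Cebpa differed by 0.24 (SE 0.214) and Per3 by 0.52 (SE 0.209, adjusted p = 0.313).

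A list of 13 other S100 genes, most of them in the same cluster as S100a8 and S100a9, was examined next. Of 8 tested, 6 rose in DMSO mice (12.9% of all genes) and 6 in A10i mice (13.8%) against sham. Between A10i and DMSO 0 of 8 reached an unadjusted p under 0.05 by edgeR or were called by DESeq2. Of all genes, 6.73% were lower and 7.1% higher at that unadjusted level. The median of the list was -0.03 (range -0.52 to 0.39). The most abundant were S100a1, a calcium sensor of heart muscle (0.15, SE 0.149), S100a10 (-0.02, SE 0.148), S100a6 (-0.22, SE 0.183) and S100a16 (-0.03, SE 0.0773). The difference between these genes and calprotectin was not tested.

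Receptors of calprotectin and lipocalin-2 were described by a list of 9 genes, of which 8 were tested. Against sham, 2 rose in DMSO mice, Tlr4 by 1.12 (SE 0.103) and Cd14, its co-receptor, by 2.05 (SE 0.282). Of all genes, 12.9% rose in DMSO mice, and in A10i mice 13.8% rose and 9.09% fell. In A10i mice the same 2 rose and 1, Bsg, fell by 0.45 (SE 0.112, adjusted p = 0.00961 by edgeR). In DMSO mice Bsg had a log2 fold change of -0.55 (adjusted p = 0.0127 by edgeR, 0.000621 by DESeq2). With A10i both were lower than with DMSO at an unadjusted p under 0.05, Tlr4 by -0.32 (SE 0.101, adjusted p = 0.213) and Cd14 by -0.76 (SE 0.293, adjusted p = 0.296, edgeR), and Slc22a17, a receptor proposed for lipocalin-2, was higher. At an unadjusted p under 0.05, 6.73% of all genes were lower and 7.1% higher. Cd36 and Bsg, which bind S100A9 and are abundant in heart muscle, differed between A10i and DMSO by -0.20 (SE 0.223) and 0.09 (SE 0.157).

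Acute-phase genes were compared because Lcn2 is also one of them. The list also held cytokine genes, such as Il6 and Il1b, whose products induce that response. Of 14, 9 were tested, of which 7 rose in DMSO mice (12.9% of all genes), and 6 of 7 tested rose in A10i mice (13.8%). Some, such as Saa3 with 0 to 3 counts in sham mice, passed the filter through the infarcted mice. Saa3, a serum amyloid A gene, rose by 9.42 (SE 0.765) in DMSO mice, Timp1 by 6.63 (SE 0.491) and Serpina3n by 5.64 (SE 0.273). In A10i mice 8 of 9 had lower values than in DMSO mice, with a median of -0.57. At an unadjusted p under 0.05, 2 were lower, the cytokine genes Il6 and Il1b. Of all genes, 6.73% were lower at that level, and DESeq2 called 0.712% of those it tested lower. None of the 9 passed 0.01 by edgeR, and DESeq2 called 1, Il1b (-1.82, SE 0.451, adjusted p = 0.14 by edgeR, 0.00243 by DESeq2). Il1b is also in the list of mature neutrophil genes, so its call was counted there too, and Hp is also in that of the specific granules. Il6 was the gene whose groups did not overlap (4.4% of all genes did not overlap in this direction). Serpina3n (-0.30, SE 0.305), Timp1 (-0.57, SE 0.350), Lrg1 (-0.57, SE 0.378) and Saa3 (-0.28, SE 0.368) had adjusted p-values of 0.519 to 0.786 (edgeR).

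Lipolysis genes were listed beside G0s2, whose protein inhibits the lipase encoded by Pnpla2. All 17 were tested. In DMSO mice 5 rose and 2 fell against sham, where 12.9% of all genes rose and 9.6% fell. In A10i mice 3 rose and 2 fell, where 13.8% of all genes rose and 9.09% fell. Against DMSO, 5 were lower and 1 higher with A10i at an unadjusted p under 0.05. Of all genes, 6.73% were lower and 7.1% higher at that level. None of the 17 passed 0.01 by edgeR or DESeq2, and their median was -0.12. Lpl (0.12, SE 0.196), Pdk4 (-0.54, SE 0.392) and Plin4 (-0.12, SE 0.193) had adjusted p-values of 0.588 to 0.827, and Fabp4, a fatty acid carrier of endothelium and fat, was higher by 0.37 (SE 0.117, adjusted p = 0.211 by edgeR).

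**Figure D5:**
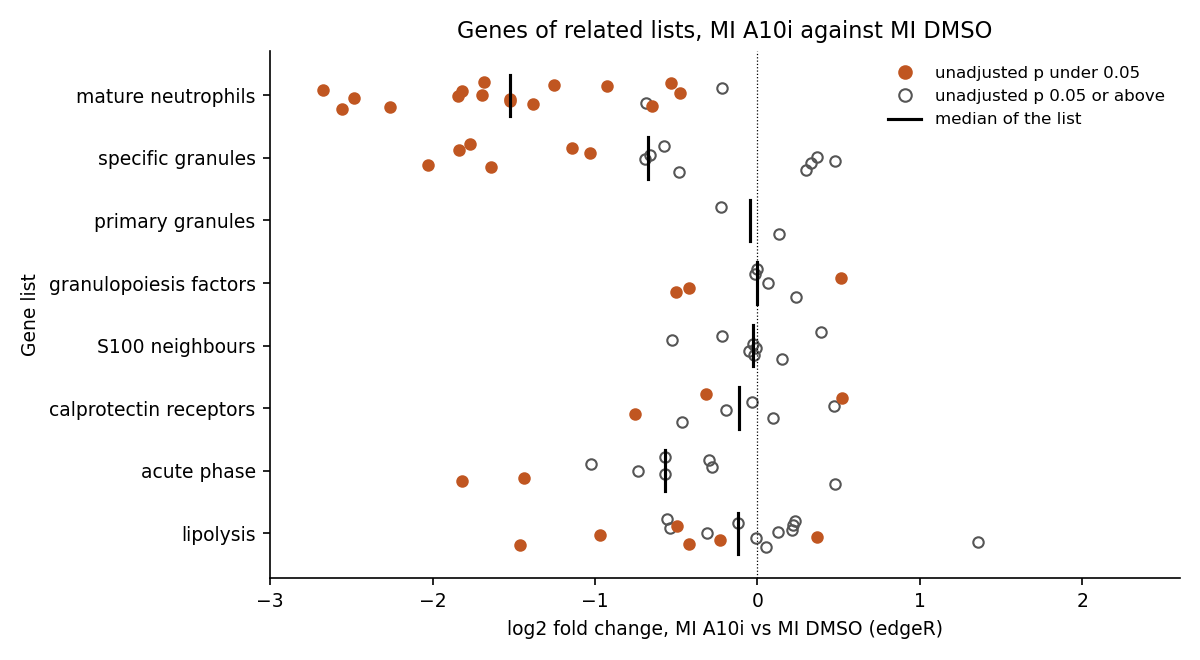
Log2 fold change between A10i and DMSO mice (edgeR) of the tested genes in 8 related lists, with filled points for an unadjusted p under 0.05 and a line at each list's median. The mature neutrophil genes lie on the left of 0 with a median of -1.52, whereas the S100 neighbours centre on -0.03.

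Cell type markers were summed in each mouse to describe the tissue beside these genes. The 8 neutrophil markers summed to 183.6 to 195.4 normalized counts in sham, 404.2 to 1185 in A10i and 1335 to 3140 in DMSO mice, which did not overlap. All of these markers but Cxcr4 were already in the lists of mature neutrophil and specific granule genes. Their sum is therefore not a separate observation. Ly6g, the surface antigen that defines mouse neutrophils, had 0 counts in sham, 1 to 4 in A10i and 1 to 8 in DMSO mice, far fewer than the calprotectin genes. It belongs to a family of similar genes, for which counts of uniquely aligned reads are uncertain. Cxcr4, a marker of aged neutrophils that other cells also express, had nearly equal levels in both groups (log2 fold change -0.0049, SE 0.371, adjusted p = 0.998 by edgeR). The 10 macrophage and monocyte markers had log2 fold changes of 0.0037 to 0.53 between A10i and DMSO, with a median of 0.39. Of these, 5 were higher at an unadjusted p under 0.05, against 7.1% of all genes, and 0 passed an adjusted p under 0.01 by edgeR or DESeq2. Their sum was 9219 to 14690 in DMSO and 12690 to 20860 in A10i mice. Cardiomyocyte markers summed to 801200 to 1157000 in DMSO and 957500 to 1302000 in A10i mice, and fibroblast markers to 46860 to 159200 and 119700 to 223500. Endothelial markers summed to 15860 to 19020 in DMSO and 19210 to 21840 in A10i mice, and these ranges did not overlap. All 5 had higher values with A10i, 2 at an unadjusted p under 0.05 (7.1% of all genes), and 0 passed 0.01 by edgeR. DESeq2 called 1, Kdr (0.56, SE 0.118, adjusted p = 0.0949 by edgeR, 0.00204 by DESeq2). Red blood cell (5986 to 95070 and 26720 to 128200), eosinophil (7.72 to 37.0 and 1.06 to 18.2), mast cell and basophil (21.0 to 54.1 and 29.6 to 77.9) and B cell markers (9.44 to 52.0 and 14.8 to 60.6) overlapped between DMSO and A10i. The part of these cell types in the levels of the 10 genes was not tested.

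Finally, the genes whose levels varied most like S100a8, Ltf and G0s2 among the 8 infarcted mice were listed by Pearson correlation of log2 CPM, after each group's mean was removed, among 13543 genes with a mean of at least 50 counts (13544 for Ltf, itself too low to be among them). The mice are few and the genes many, so high values are found for any gene. For S100a8 the most alike were Ninl (0.974), S100a9 (0.959), Ch25h (0.959), Qpctl (0.951), Ppm1g (0.949) and Ufsp2 (0.948). Of these, S100a9 and Ch25h, which encodes cholesterol 25-hydroxylase, also had lower values with A10i (-1.95 and -1.16), and the other 4 had fold changes between -0.11 and 0.06. For G0s2 they were Tfdp2 (0.990), Aqp7 (0.986), Zfp579 (0.986), Ccdc149 (0.984), Arhgap26 (0.984) and Ptov1 (0.976). For Ltf, which had 0 to 13 counts, Ngef (0.982), Acvrl1 (0.964), Gm10282 (0.955), Srsf3 (0.950), Hmgn2 (0.947) and Fbxl8 (0.947) came first.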

How the data were processed

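Infarct and border zone or healthy heart tissue of 11 mice was analysed. Per the labels and methods, the authors enriched mRNA with poly-dT beads, prepared libraries that keep the strand, placed the reads on mm10 with GSNAP and counted those aligned to 1 position per Ensembl gene with featureCounts (2.0.1). The deposited values are these raw counts, not normalized. The strand setting of the counting is not given in the sources used here, so that reads of overlapping antisense genes could not be told apart.

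Counts were scaled by TMM over all 11 libraries for the levels printed. Each comparison was fitted on its own libraries in R 4.3.3 with edgeR 4.0.16 (filterByExpr, TMM, robust quasi-likelihood F-test, two-sided, Benjamini-Hochberg adjustment over all genes tested, threshold 0.01). Standard errors were derived from the F statistic. DESeq2 1.42.0 was an alternative, beside other scalings, filters, a joint fit of the 11 libraries, a looser threshold (0.05) and fits without each mouse. Scripts were tested on simulated data. Log2 CPM used a prior count of 2. All mice are separate animals.

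The 10 genes and the 18 lists were chosen with earlier results of these data known. All 10 were named, with up to 4 genes of each list, those with the highest mean CPM, and the 6 genes most like S100a8, Ltf and G0s2; other genes were named after their values were seen. Gene symbols came from the reference annotation, which names 55154 of 55513 identifiers, and upstream sequences from RefSeq.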

Additional observations from a re-analysis of the deposited data

Results flagged for a closer look

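Groups of 4 mice were examined for a mouse that stands apart from the others by Dixon's test for each gene with any spread. Of 18 such groups 1 was found. Ltf in the A10i group had a normalized count of 0 in mouse A120, where the other 3 mice had 1 count each. Chance alone finds about 1 in 20 groups, and the difference is a single read.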

How the results depend on the processing

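The counts of genes higher than sham were 4 in DMSO and 4 in A10i mice. Under DESeq2 the first was 5, with Ngp added. Without a filter it was 4, with Ngp in place of Lcn2 (adjusted p = 0.0109). A filter of 10 counts in every library gave 1 in each comparison, since only Lcn2 and G0s2 then remained to be tested. Other scalings, the joint fit and a threshold of 0.05 gave 4. Omitting each mouse gave 4 in DMSO mice and 3 to 4 in A10i mice. Between A10i and DMSO the count of lower genes was 0 under every alternative but DESeq2, which gave 2. The granule minus mature difference was -3.93 between DMSO and sham, -3.33 between A10i and sham and 0.61 between A10i and DMSO. Without Lcn2 and G0s2 the first 2 became -5.70 and -4.50. With S100a8 and S100a9 alone as mature genes they became -6.24, -4.83 and 1.40. Under a single alternative each, the sign turned for G0s2 between DMSO and sham (0.0584, library size alone, which shifted the median of all genes by 0.21) and for Ltf between DMSO and sham (-0.0429 without A127 to 0.692 without A128, from 0.337 with all mice). Without any 1 mouse the Mpo difference between A10i and DMSO could not go below an exact p of 0.0571. No paired analysis was possible because the groups share no replicate numbers. Depth limits Ltf, Camp, Mpo and Elane, with 0 to 13 counts.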
